A study of Homo sapiens with 38 samples.

Results

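The genes described here encode the subunits of the proteasome, its activators, its inhibitor and its assembly chaperones. They were taken from RefSeq on GRCh38.p14 as every protein-coding record whose symbol starts with PSMA, PSMB, PSMC, PSMD, PSME, PSMF or PSMG followed by a number, which gave 50 of 20037 protein-coding records. The rule used symbols and no measured value. Of the 50 records, 48 belong to the proteasome, whereas PSMC3IP (a partner of the recombinases of meiosis) and PSME3IP1 (a protein that binds the activator PSME3) match the rule without being subunits. The question was where 2 transcription factors and a histone mark lie at these genes, compared with all protein-coding genes.

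The series profiled Jurkat cells, an established human line of T-cell acute lymphoblastic leukaemia (labelled T-ALL), by chromatin immunoprecipitation and sequencing, which lists the places where an antibody enriched DNA as peaks. It holds 38 samples in 19 groups of 2, and the values here come from 3 groups, each named Ctrl_LV: cells with a control lentivirus, immunoprecipitated for GATA3, BHLHE40 or H3K27ac. The other 16 groups were not analysed here. All 3 groups were labelled as stimulated with PMA and ionomycin, given as 50 ng/ml and 500 ng/ml. The duration is labelled as 5 hours on the samples, while the protocol gives 2 hours. The protocol describes selection of transduced cells with puromycin, and nothing labels the cells as a single clone. GATA3 is a transcription factor of T cells that binds GATA sequences, BHLHE40 is a basic helix-loop-helix repressor that binds E-boxes, and H3K27ac is an acetylated histone found at active promoters and enhancers.

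The proteasome is the protease that degrades proteins tagged with ubiquitin. Its core particle is a barrel of alpha and beta rings, and 3 of the constitutive beta subunits, PSMB5, PSMB6 and PSMB7, hold the active sites. In immune cells PSMB8, PSMB9 and PSMB10 can replace them to form the immunoproteasome, which favours peptides that fit the antigen-presenting molecules. A regulatory particle of ATPases (PSMC genes) and other subunits (PSMD genes) recognises, unfolds and feeds in the substrate. The subunits are made in balanced amounts, and when proteasomes are inhibited the factor NFE2L1 raises many of their genes through antioxidant response elements.

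Each list holds 1 value per peak for its group, so there are no values per sample, no replicate spread and no test of any difference. The depth is unknown. The lists hold 29009 GATA3, 26205 BHLHE40 and 113570 H3K27ac peaks. As a check of the cell type, 8 of 8 T-lineage genes (CD2, CD3D, CD3E, CD3G, CD7, CD247, LCK and ZAP70) had an H3K27ac peak in their window, against 2 of 4 B-lineage, 2 of 4 myeloid and 1 of 3 epithelial, hepatic or stromal genes. Over all protein-coding genes 74.9% of windows and 55.4% of starts had one, so these small counts are a weak check. Among those with a listed start, 5 of 5 T-lineage genes had an H3K27ac peak there, 1 of 2 B-lineage genes (CD79A) had one, and neither of the 2 myeloid genes did.

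Sequences before 3 starts are shown first, because the CACGTG E-box (a palindrome, so the same on both strands) lay within 50 bp of the BHLHE40 summit there. The summit is the point of highest enrichment in a peak. All sequences are from the RefSeq promoter table on GRCh38.p14, 5′ to 3′ in the direction of transcription, and capitals mark the motif. PSME3 is at chr17:42833297-42833396 on the plus strand, PSMD9 at chr12:121888615-121888700 on the plus strand and PSME3IP1 at chr16:57186186-57186246 on the minus strand.
PSME3: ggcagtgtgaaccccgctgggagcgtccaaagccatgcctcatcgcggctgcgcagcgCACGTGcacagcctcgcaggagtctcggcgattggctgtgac
PSMD9: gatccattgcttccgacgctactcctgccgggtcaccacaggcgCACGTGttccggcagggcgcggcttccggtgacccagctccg
PSME3IP1: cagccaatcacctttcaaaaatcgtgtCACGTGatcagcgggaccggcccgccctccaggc
The motif centre was 35.5 bp from the summit at PSME3, 44.5 bp at PSMD9 and 3.5 bp at PSME3IP1. These were 3 of the 29 members with a BHLHE40 summit in the promoter window, near the general share, 7.38% of 4430 such starts over all genes. Their BHLHE40 signal values, the authors' measure of enrichment for each peak, were far apart among the member starts (5.17 to 41.6): 41.6 at PSME3, 31.0 at PSMD9 and 5.34 at PSME3IP1. The fourth promoter with the motif, that of PSMB3, had its BHLHE40 summit 653.5 bp away from it. In all, 4 of 44 member promoters (9.09%) and 8.82% of all 15842 promoters of 300 bases held CACGTG. Over all protein-coding genes, 62.6% of starts with the motif and 46.4% of starts without it had a BHLHE40 peak.

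A strong BHLHE40 peak was also present where CACGTG was not in the window. PSMD11, a subunit of the regulatory particle, had a BHLHE40 signal value of 27.6 with its summit 136 bp before the start. The stretch around that summit, chr17:32444330-32444420 on the plus strand, holds no CACGTG and so has no capitals.
PSMD11: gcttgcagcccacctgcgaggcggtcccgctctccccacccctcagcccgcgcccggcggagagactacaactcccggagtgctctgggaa
The absence says only that these letters are not in the 300 bases examined. Other E-boxes of the form CANNTG were not searched, and the stretch does hold one, CACCTG.

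Another set of sequences is shown for the core of the antioxidant response element, TGACNNNGC, searched on both strands. It occurred in 13 of 44 member promoters (29.5%) and in 14.4% of all promoters. At 6 members its centre lay within 50 bp of the BHLHE40 summit: PSMB9, PSMD3, PSMD5, PSMD9, PSME2 and PSME4. This was 6 of the 29 members with a BHLHE40 summit in the promoter window, against 6.39% of 4430 such starts over all genes. Whether this goes beyond the higher share of member promoters that hold the element was not tested. The nearest cases were PSME4 (6 bp), PSMB9 (7 bp) and PSMD3 (13 bp). Their stretches are PSMB9 at chr6:32854002-32854082 on the plus strand, PSMD3 at chr17:39980747-39980806 on the plus strand and PSME4 at chr2:53970994-53971053 on the minus strand; at PSMB9 and PSME4 the match is on the opposite strand, so the capitals read as its reverse complement.
PSMB9: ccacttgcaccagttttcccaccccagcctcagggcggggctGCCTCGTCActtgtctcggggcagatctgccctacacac
PSMD3: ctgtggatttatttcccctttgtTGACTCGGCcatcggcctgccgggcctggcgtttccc
PSME4: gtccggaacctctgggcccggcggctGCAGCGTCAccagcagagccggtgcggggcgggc
Other motifs were counted in the same 44 windows on both strands. CCGGAAG, a core bound by ETS factors, was in 14 (31.8% against 14.2% of all promoters) and CCAAT, bound by NF-Y, in 21 (47.7% against 36.4%). Within 50 bp of the BHLHE40 summit lay CCAAT at 6 of the 29 members (all genes 17.0%), CCGGAAG at 4 (15.5%) and CACGCG at 2 (9.55%). GATAA, the core bound by GATA factors, was in 2, PSMB2 and PSMC6 (4.55% against 18.3%). CACGCG was in 5 (11.4% against 14.9%), AAGATGGCG in 2 (4.55% against 2.69%) and the palindrome bound by nuclear respiratory factor 1 in 1 (2.27% against 1.77%). These shares are descriptions of letters and show no binding site.

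Almost every proteasome gene had BHLHE40 and H3K27ac peaks, and most had a GATA3 peak as well. A window was the gene record with 2 kb added on each side. BHLHE40 peaks overlapped 48 of 50 windows, against 58.7% of all protein-coding genes. H3K27ac peaks overlapped 49 of 50, against 74.9%. GATA3 peaks overlapped 35 of 50, against 44.4%. All 35 windows with GATA3 also held BHLHE40, as did 87.6% of windows with GATA3 over all genes, and all 35 held H3K27ac too (35 of 50 with all 3 lists, against 38.4%). With BHLHE40 in 48 and H3K27ac in 49 of the 50 windows, these member counts were nearly fixed. The member records were shorter than the background, with a median of 13551.5 bp against 24115 bp, so the higher shares did not come with longer windows. The windows held 63 distinct GATA3, 73 BHLHE40 and 210 H3K27ac peaks.

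The difference was also there at the starts. A start was the outermost transcription start of a gene in the RefSeq promoter table, which lists 44 of the 50 members. PSMA7, PSMB1, PSMB6, PSMB7, PSMD4 and PSMG3 have no entry. Within 1 kb of the start, a BHLHE40 peak was present at 40 of 44 members (90.9%, exact Clopper-Pearson 95% interval 78.3 to 97.5%), against 47.8% of all genes. An H3K27ac peak was present at 41 of 44 (93.2%, 81.3 to 98.6%), against 55.4%. A GATA3 peak was present at 25 of 44 (56.8%, 41.0 to 71.7%), against 22.2%. The intervals cover counting error over genes only.

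**Figure D1:**
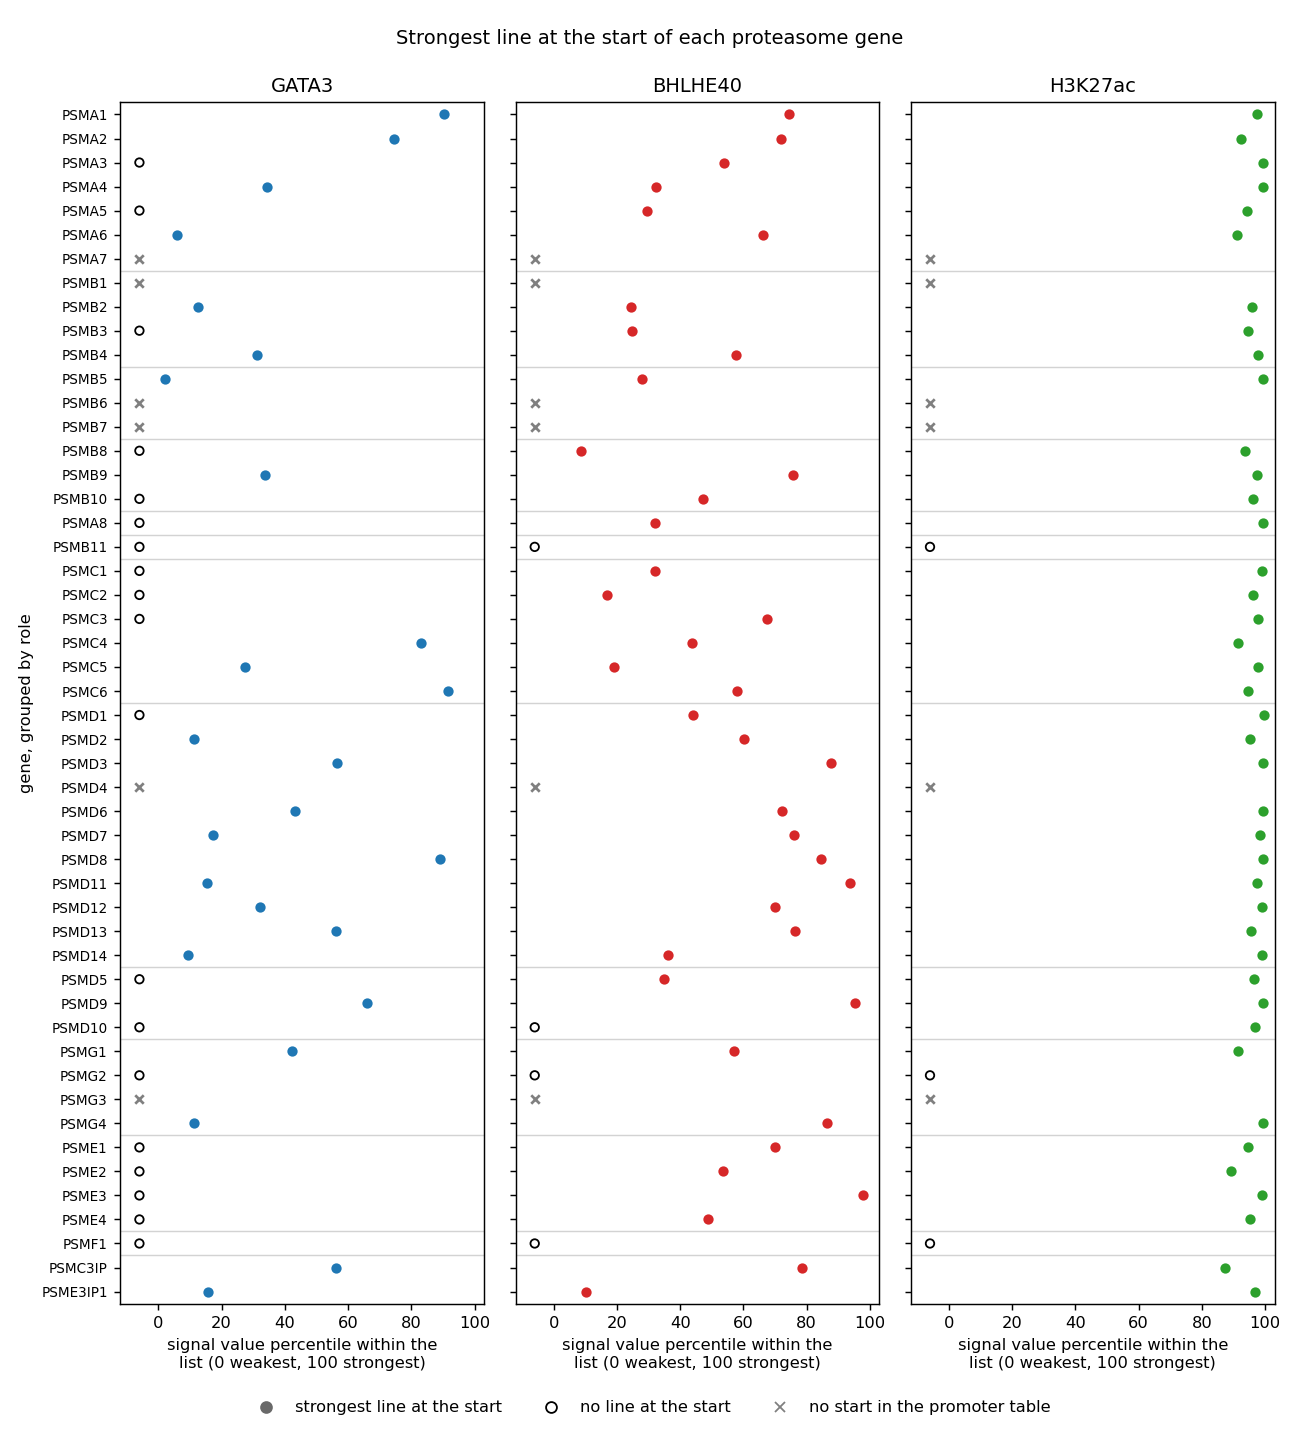
Percentile of the signal value of the strongest peak (line of the list) within 1 kb of each start, in each list (horizontal axis, 0 weakest to 100 strongest), for the 50 genes grouped by role (vertical axis). Open circles mark starts with no peak and crosses mark genes with no start in the promoter table. H3K27ac points sit between 87.3 and 99.8, and BHLHE40 and GATA3 points run over most of their lists. The lists were built differently, so percentiles are read within a list.

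H3K27ac peaks at these starts stood high in their list, and the factor peaks did not. The median H3K27ac signal value of the strongest peak at the start was 9.45 over 41 members and 6.999 over all 8783 genes with such a peak. Their median percentile in the list was 97.4 for the members and 94.1 for all genes, and 39 of 41 reached the top 10% of the list, against 69.9%. For BHLHE40 the median signal value was 10.4 over 40 members and 10.8 over all genes, with median percentiles of 57.4 and 59.9. For GATA3 it was 8.99 over 25 members and 9.14 over all genes, with median percentiles of 33.8 and 35.1. Only 3 of 40 BHLHE40 peaks and 2 of 25 GATA3 peaks reached the top 10% of their lists, against 9.70% and 5.23% of all genes with a peak. The factors were found at more proteasome starts than at the starts of other genes, with signal values near those of other genes.

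Over all genes the share of starts with a factor rose with H3K27ac. Among member starts with an H3K27ac peak it hardly changed at stricter thresholds. Among starts with an H3K27ac peak, BHLHE40 was at 40 of 41 members against 82.9% of all genes, and GATA3 at 25 of 41 (61.0%) against 38.6%. Neither factor was at any of the 3 member starts without an H3K27ac peak, against 4.16% of all such starts for BHLHE40 and 1.78% for GATA3. Each of the 41 member starts with an H3K27ac peak had one with a −log10 q of at least 5. Such a peak was at 49.5% of all starts, and among these BHLHE40 was at 88.6% and GATA3 at 42.2% of all genes. An H3K27ac peak with a −log10 q of at least 50 was at 32 of 44 members (72.7%), against 19.2% of all starts. Among those starts, BHLHE40 was at 32 of 32 members against 98.1% of all genes, and GATA3 at 20 of 32 (62.5%) against 62.3%. Past that threshold the shares of proteasome genes and of all genes lay close together. Whether the level of the mark or the gene group sets the factor peaks was not tested.

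**Figure D2:**
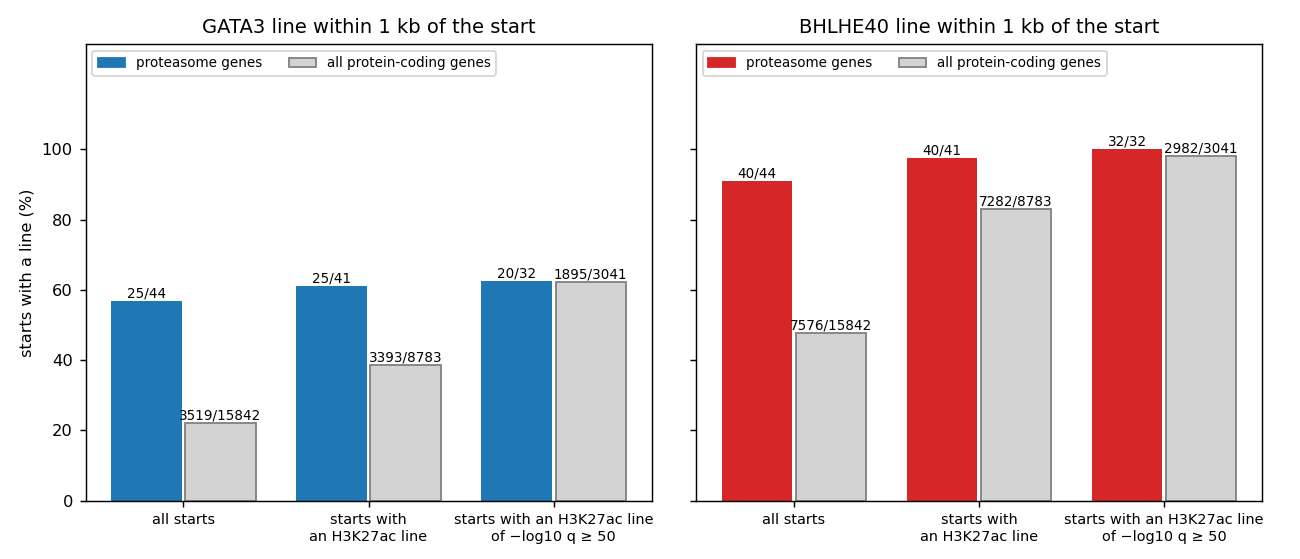
Share of starts (vertical axis, %) with a GATA3 or a BHLHE40 peak (line of the list) within 1 kb, for proteasome genes (coloured bars) and all protein-coding genes (grey bars), over all starts, starts with an H3K27ac peak and starts with an H3K27ac peak of −log10 q of at least 50. Counts stand above the bars. The bars for GATA3 differ at all starts (25 of 44 against 22.2%) and are at 62.5% and 62.3% in the last pair.

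GATA3 at the starts came with BHLHE40, at proteasome genes and at other genes alike. Each of the 25 member starts with GATA3 also had BHLHE40, as had 93.7% of all such starts. BHLHE40 was at 40 of 44 member starts (47.8% of all starts), so for the members this outcome was nearly fixed. The strongest peaks of the 2 factors overlapped at 25 of 25, against 94.9%. None of the 4 starts without BHLHE40 (PSMB11, PSMD10, PSMF1 and PSMG2) had GATA3, against 2.67% of all such starts. At 15 of 44 members (34.1%, against 25.5% of all genes) BHLHE40 and H3K27ac were present without GATA3. These were PSMA3, PSMA5, PSMA8, PSMB3, PSMB8, PSMB10, PSMC1, PSMC2, PSMC3, PSMD1, PSMD5, PSME1, PSME2, PSME3 and PSME4. The summits of the 2 factors mostly lay more than 50 bp apart at the starts, and 6 of 25 (24.0%) lay within 50 bp, against 28.0%. Their median distance was 145 bp over 25 members and 127.5 bp over all genes.

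The 3 lists placed their summits differently around the start. The BHLHE40 summit lay a median of 34.5 bp before the start (−34.5 bp, all genes −64.0 bp), and 24 of 40 (60.0%) lay within 100 bp of it, against 39.3% of all genes. Within 250 bp lay 36 of 40, against 71.0%. The exceptions were PSMB3 at −889 bp, PSMC3IP at −842 bp, PSMB10 at 909 bp and PSMD7 at −323 bp. The H3K27ac summit lay a median of 128 bp after the start (all genes 112 bp), and it was after the BHLHE40 summit at 29 of 40 members, against 59.1%. The GATA3 summits ran from −1132 bp at PSMG1 to 276 bp at PSMD8, with a median of −127 bp (all genes 17 bp), and 4 of 25 lay within 100 bp against 29.5%.

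**Figure D3:**
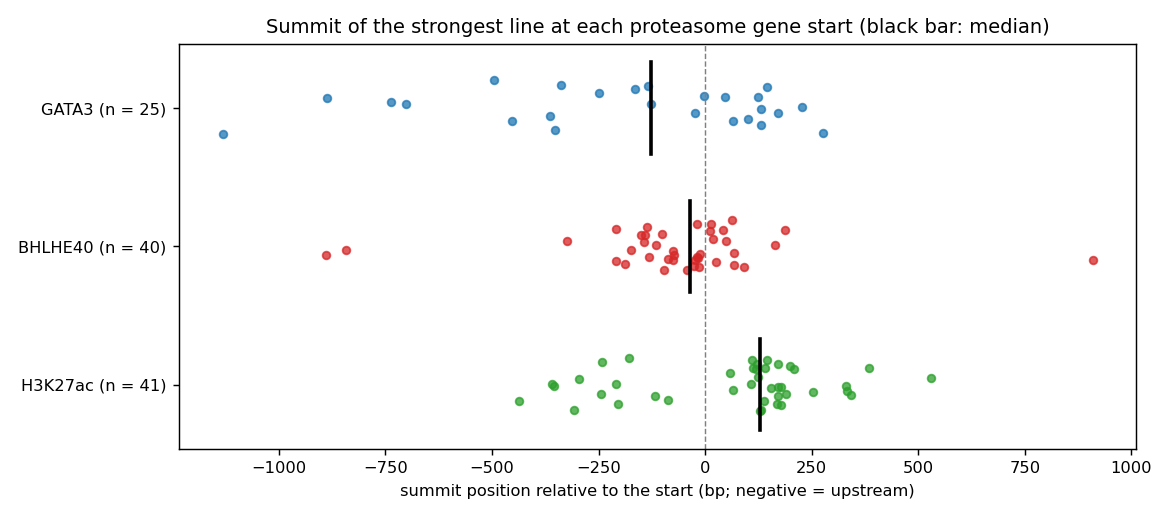
Position of the summit of the strongest peak (line of the list) relative to the start (horizontal axis, bp, negative is upstream) for each member with a peak, in each list, with the median as a black bar. BHLHE40 summits crowd around the start (24 of 40 within 100 bp), H3K27ac summits sit mostly after it and GATA3 summits reach to −1132 bp.

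Among the catalytic subunits of the constitutive core, all 3 windows held all 3 marks, as did 38.4% of all windows. PSMB5 carries the chymotrypsin-like site and had one of the strongest H3K27ac starts of the group, with a signal value of 14.8 (chr14:23034275-23035707, rank 577). Its factors were weak, with BHLHE40 at 7.01 (chr14:23034514-23035605, rank 18923) and GATA3 at 4.83 (chr14:23034420-23035259, rank 28389 of 29009). PSMB6, with the caspase-like site, had GATA3 at 8.55 (chr17:4796053-4796433, rank 20357), BHLHE40 at 4.70 (chr17:4795771-4796442, rank 24805) and H3K27ac at 10.5 (chr17:4796120-4796816, rank 2114). PSMB7, with the trypsin-like site, had a GATA3 peak of 27.1 (chr9:124403402-124403984, rank 4165) that overlapped no BHLHE40 peak. A second GATA3 peak of 11.1 (chr9:124415010-124416338, rank 14699) lay at the position of BHLHE40 at 17.5 (chr9:124415133-124415905, rank 4326) and H3K27ac at 8.00 (chr9:124414704-124415884, rank 4796). So the strongest GATA3 peak of a catalytic subunit gene stood apart from its BHLHE40 and H3K27ac peaks.

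The immunoproteasome genes PSMB8 and PSMB9 lie close together in the major histocompatibility complex and differed in their factors. PSMB9 had BHLHE40 at 14.4 (chr6:32853418-32855087, rank 6362), GATA3 at 8.99 (chr6:32853596-32854263, rank 19190) and H3K27ac at 9.59 (chr6:32853279-32854563, rank 2848). Its start is 488 bp from that of TAP1, a peptide transporter gene read in the opposite direction, so the peaks belong to both by position. At the PSMB8 start BHLHE40 was weak, at 5.17 (chr6:32843860-32845831, rank 23899), H3K27ac was 6.78 (chr6:32843711-32845170, rank 7199) and GATA3 was absent. The stronger BHLHE40 peak of the PSMB8 window, 17.2 (chr6:32838342-32839239, rank 4486), lay beyond the other end of the gene, 5842 bp from the start, with GATA3 at 7.31 (chr6:32838558-32839210) and H3K27ac at 5.88 (chr6:32838514-32838877). These 3 summits lay 98, 131 and 72 bp from a start of TAP2, the partner transporter gene. PSMB10, on chromosome 16, had H3K27ac at 8.29 (chr16:67935886-67937334, rank 4392) and BHLHE40 at 9.03 (chr16:67935520-67937091, rank 13799) with its summit 909 bp inside the gene, and no GATA3. Among the 3 genes only PSMB9 had GATA3 at its start.

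**Figure D4:**
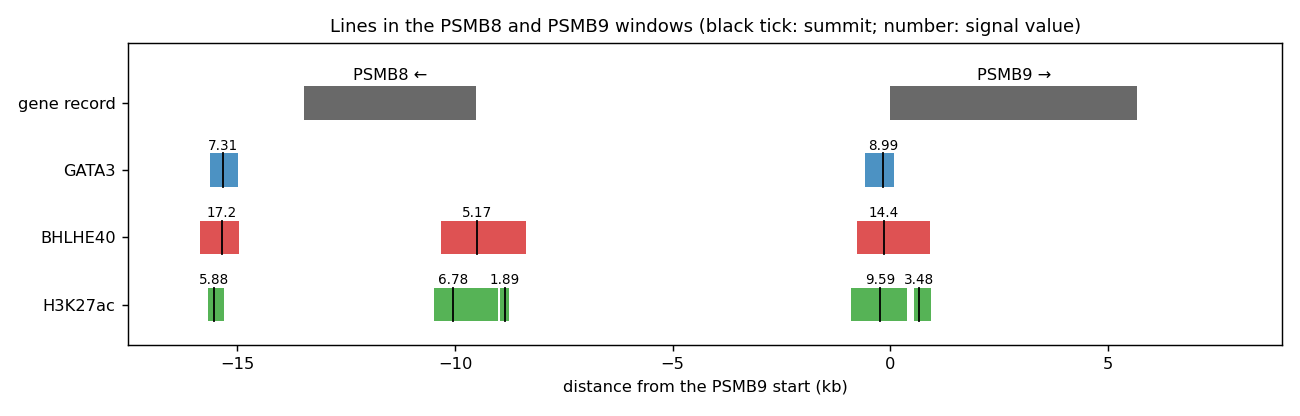
Map of the PSMB8 and PSMB9 windows, with distance from the PSMB9 start in kb on the horizontal axis, gene records in grey with arrows for the direction of transcription, and the peaks (lines) of the 3 lists as coloured boxes with their summits and signal values. GATA3 is drawn at the PSMB9 start (8.99) and beyond the PSMB8 gene (7.31), and not at the PSMB8 start.

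The other core subunits had BHLHE40 and H3K27ac without exception. The alpha ring (PSMA1 to PSMA7), which gates the entrance of the barrel, had H3K27ac and BHLHE40 in 7 of 7 windows and GATA3 in 4 of 7. PSMA2, PSMA4 and PSMA6 had GATA3 at the start with signal values of 18.3, 9.03 and 5.80. PSMA3 and PSMA5 had BHLHE40 at 9.90 and 7.18 with no GATA3, and PSMA3 had one of the strongest H3K27ac peaks of the group, 14.5 (chr14:58244762-58245729, rank 623). The window of PSMA7 had BHLHE40 up to 9.75 and H3K27ac at 10.9. The non-catalytic beta subunits PSMB1, PSMB2, PSMB3 and PSMB4 had BHLHE40 in 4 of 4 windows, from 6.73 at PSMB2 to 15.2 at PSMB1, and GATA3 in 3 of 4, the exception being PSMB3. The BHLHE40 and GATA3 summits of the PSMB1 window lay outside the gene record, 86 and 262 bp from a start of the neighbour TBP. Over the 14 constitutive core genes, 14 windows had BHLHE40, 14 had H3K27ac and 10 had GATA3. Over all genes the window shares were 58.7%, 74.9% and 44.4%, in the same order. GATA3 in 4 of 7 alpha ring windows was thus near the general share.

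In the regulatory particle, BHLHE40 and H3K27ac were at all 16 listed starts and GATA3 at 12. Over all genes the start shares were 47.8%, 55.4% and 22.2%, in the same order. Among the subunits that are not ATPases, BHLHE40 and H3K27ac were at 10 of 10 starts and GATA3 at 9 of 10, the exception being PSMD1, the large scaffold subunit. Their BHLHE40 signal values ran from 7.83 at PSMD14, the deubiquitinase that removes the tag, through a median of 13.9 to 27.6 at PSMD11 (chr17:32443960-32445720, rank 1613). GATA3 ran from 6.38 at PSMD14 to 32.3 at PSMD8 (chr19:38374368-38375248, rank 3173), with PSMD2 at 6.61, PSMD11 at 7.08, PSMD7 at 7.28, PSMD12 at 8.83, PSMD6 at 10.2, PSMD13 at 12.4 and PSMD3 at 12.5. PSMD4, a ubiquitin receptor with no listed start, had BHLHE40 at 6.50 and H3K27ac at 6.34 in its window and no GATA3. PSMD1 had the strongest H3K27ac start of the group, 17.8 (chr2:231056524-231057674, rank 263). Among the ATPases, BHLHE40 and H3K27ac were at 6 of 6 starts and GATA3 at 3 of 6, with 37.9 at PSMC6 (chr14:52706137-52707562, rank 2457), 24.4 at PSMC4 and 8.30 at PSMC5. PSMC1, PSMC2 and PSMC3 had none. The BHLHE40 values of the ATPases were lower, from 6.04 at PSMC2 to 12.3 at PSMC3.

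The activators had BHLHE40 and no GATA3 at their starts. PSME3, which forms a nuclear activator, had the highest BHLHE40 signal value of all members, 41.6 (chr17:42832612-42834270, rank 601 of 26205), and H3K27ac at 12.5. PSME1 and PSME2, the interferon-inducible activator pair, had BHLHE40 at 12.8 and 9.81 and H3K27ac at 7.32 and 5.21. A BHLHE40 peak of 12.4 (chr14:24140932-24142194) and an H3K27ac peak of 3.60 between these neighbours fell in both windows, and were the only peaks shared by members. PSME4, the large single-chain activator, had BHLHE40 at 9.21 and H3K27ac at 7.62 at the start. The GATA3 peaks in the windows of PSME2 (8.30) and PSME4 lay more than 1 kb from the starts of these genes. The summit of the one in the PSME2 window was 309 bp from a start of EMC9. Thus 0 of 4 activator starts had GATA3, next to 12 of 16 in the regulatory particle and 22.2% of all starts. These differences were not tested.

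Assembly chaperones were mixed. PSMD9 had BHLHE40 at 31.0 (chr12:121888268-121889550, rank 1255) and GATA3 at 14.9, but its start is 179 bp from that of HPD on the opposite strand, and the BHLHE40 summit was 6 bp from the HPD start. PSMD5 had BHLHE40 at 7.71. PSMD10, also known as gankyrin, had H3K27ac at 8.94 (chrX:108090602-108091635, rank 3526) and no peak of either factor. The core chaperones PSMG1 and PSMG4 had BHLHE40 at 10.4 and 19.1 and GATA3 at 10.1 and 6.59, and the PSMG3 window had BHLHE40 at 8.54 and H3K27ac at 5.97. PSMG2 had nothing at its outermost start, but at its other listed start, 44304 bp further on, it had H3K27ac at 19.6 (chr18:12702248-12703418, rank 178) and GATA3 at 7.85, and a BHLHE40 peak of 14.5 with its summit 1579 bp before that start. A stronger GATA3 peak of 62.8 (chr18:12700944-12701986, rank 915) had its summit 2 bp from that BHLHE40 summit. All 4 summits were nearer to a start of the neighbour CEP76 than to one of PSMG2, 15 bp for the weaker GATA3 peak, 109 bp for H3K27ac, 1258 bp for the stronger GATA3 peak and 1260 bp for BHLHE40. The inhibitor PSMF1 likewise had nothing at its outermost start and all 3 marks at a start 5339 bp on: BHLHE40 at 16.6 with its summit at −70 bp, GATA3 at 5.29 and H3K27ac at 6.39. When any listed start of a gene was allowed, an alternative chosen after seeing the data, BHLHE40 was at 42 of 44 members, H3K27ac at 43 and GATA3 at 27. Over all genes the shares under this rule were 49.6%, 57.6% and 23.7%, in the same order.

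The genes with restricted expression went different ways. PSMA8, the alpha subunit of the testis, had H3K27ac at 13.7 (chr18:26133301-26134289, rank 753) and BHLHE40 at 7.41 (chr18:26133468-26134332, rank 17792) at its start and no GATA3. PSMB11, the beta subunit of the thymus epithelium, was the 1 member of 50 with no peak of any list in its window, against 22.5% of all genes. Of the symbols that are not subunits, PSMC3IP had BHLHE40 at 15.4 (chr17:42577434-42578941, rank 5599), GATA3 at 12.4 (chr17:42578477-42578906, rank 12721) and H3K27ac at 4.83 (chr17:42577366-42578468, rank 14422), with the factor summits 842 and 888 bp before the start. PSME3IP1 had BHLHE40 at 5.34 (chr16:57185532-57186719, rank 23503), GATA3 at 7.10 (chr16:57186014-57186612, rank 24454) and H3K27ac at 8.73 (chr16:57185239-57186032, rank 3768). Without these 2 genes, 46 of 48 windows had BHLHE40, 47 had H3K27ac and 33 had GATA3.

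Some starts are shared with a neighbour. At 8 of 44 members (18.2%, against 12.9% of all genes) another protein-coding start lay within 1 kb on the opposite strand. The summit was nearer to another gene's start for 4 of 40 BHLHE40 peaks (PSMA2, PSMD9, PSMD13 and PSME2), 3 of 25 GATA3 peaks (PSMA2, PSMC5 and PSMD9) and 2 of 41 H3K27ac peaks (PSMD13 and PSME4). Nearness does not say which gene a peak belongs to.

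Away from the starts the 2 factors met in another way. In the windows of the 44 members, 28 GATA3 peaks lay more than 1 kb from any listed start of a protein-coding gene. Only 15842 of 20037 protein-coding records have a listed start, so a distant peak can still lie at an unlisted one. Their median signal value was 18.3, against 8.91 for the 26 GATA3 peaks at member starts and 11.6 for all such distant peaks in gene windows. Of the 28, 14 (50.0%, all genes 43.2%) overlapped a BHLHE40 peak, and the median distance between the summits was 31.0 bp (all genes 28.0 bp), where it was 145 bp at the starts. Within 10 bp lay 5 of the 14 distant pairs and none of the 25 pairs at starts, against 23.04% and 8.52% of such pairs over all genes. BHLHE40 went the other way in strength, with a median of 7.55 over 18 distant peaks and 10.4 over 41 peaks at starts. Over all genes these medians were 8.79 and 10.3, in the same direction. Many of the distant factor peaks lay in the PSMA1 window, which held 11 GATA3 and 9 BHLHE40 peaks, those at the start included. The distant H3K27ac peaks were narrow and weak: 120 peaks had a median signal value of 3.02 and a median width of 230.5 bp, and the 63 at starts had 7.24 and 781 bp. The same held over all genes, with 3.15 and 222 bp for distant peaks and 5.29 and 566 bp at starts.

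**Figure D5:**
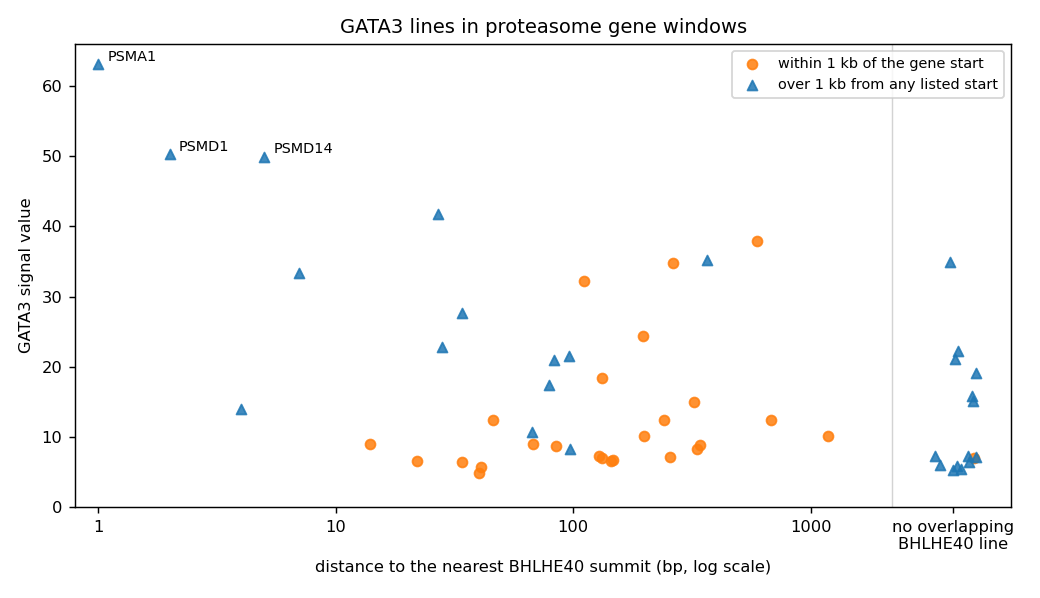
Signal value (vertical axis) of the GATA3 peaks (lines of the list) in the windows of the 44 members with a listed start, 26 within 1 kb of the gene's own start and 28 over 1 kb from any listed start, against the distance of its summit to that of the BHLHE40 peak it overlaps (horizontal axis, bp, log scale), with peaks that overlap none at the right. Circles are the peaks at starts and triangles the distant ones; peaks near another listed start only, such as that of 62.8 in PSMG2, are not drawn. The 3 highest triangles drawn, in PSMA1 (63.0), PSMD1 (50.2) and PSMD14 (49.9), lie 1 to 5 bp from a BHLHE40 summit.

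The strongest of these distant GATA3 peaks lay inside or along large records. PSMA1 had the most peaks in all 3 lists, 11 GATA3, 9 BHLHE40 and 22 H3K27ac, in a record whose far end is 123276 bp upstream of the listed start. Its highest GATA3 peak, 63.0 (chr11:14594948-14595863, rank 904), had its summit 1 bp from that of BHLHE40 at 12.2 (chr11:14595058-14595727). Further GATA3 peaks of 41.8 (chr11:14536814-14537878) and 27.7 (chr11:14578183-14579191) lay 27 and 34 bp from a BHLHE40 summit, and the peak at the start itself was 34.8 (chr11:14520010-14521278, rank 2805). In PSMD1, which had no GATA3 at its start, a peak of 50.2 (chr2:231124721-231125873, rank 1456) lay 68597 bp into the gene and 2 bp from the summit of a BHLHE40 peak of 7.64. The record of another gene, HTR2B, overlaps that of PSMD1, and whether this peak lies at an unlisted start of HTR2B was not tested. In PSMD14 a peak of 49.9 (chr2:161356814-161357740, rank 1490) was 5 bp from BHLHE40 at 15.8, and in PSME4 one of 33.3 (chr2:53884754-53885451, rank 3010) was 7 bp from BHLHE40 at 14.4. Not all were paired this closely. The GATA3 peak of 35.2 in PSMA6 (chr14:35314606-35315570, rank 2754) overlapped a BHLHE40 peak of 13.3 with the summits 366 bp apart, and the GATA3 peak of 34.9 in the PSMA2 window overlapped no BHLHE40 peak.

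Genes that work with the proteasome were counted from a fixed list of 29, of which 24 have a listed start. BHLHE40 was in 27 windows and at 21 of 24 starts, H3K27ac in 29 and at 24 of 24, and GATA3 in 23 and at 15 of 24. Over all genes the window shares were 58.7%, 74.9% and 44.4%, and the start shares 47.8%, 55.4% and 22.2%, in the same order. The regulators of proteasome gene expression, NFE2L1, NFE2L2, the protease DDI2 that cleaves NFE2L1 and the deglycosylase NGLY1, had all 3 marks at 4 of 4 starts. Over all genes 20.5% of starts had all 3. Of the proteasome-associated genes, 9 of 11 starts had BHLHE40 and 6 had GATA3, POMP (the core maturation factor), USP14 and UCHL5 (deubiquitinases) among the 6. ECPAS and SEM1 had no BHLHE40 in their windows. Of the genes for ubiquitin and its shuttles, 8 of 9 starts had BHLHE40 and 5 had GATA3.

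The ribosomal protein genes, another set of coordinated housekeeping genes, give a scale for these shares. BHLHE40 was at 65 of 68 starts of cytosolic ribosomal protein genes (95.6%) and at 64 of 69 of mitochondrial ones (92.8%), next to 90.9% of proteasome starts. GATA3 was at 60 of 68 (88.2%) and 35 of 69 (50.7%), next to 56.8%. The median GATA3 percentile was 71.1 for the cytosolic and 36.6 for the mitochondrial set, next to 33.8 here. H3K27ac was at 65 of 68 (95.6%) and 69 of 69 starts, next to 93.2%. In GATA3 share and percentile the proteasome genes lay nearer to the mitochondrial set and in H3K27ac share nearer to the cytosolic set. The differences were not tested.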

How the data were processed

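GATA3, BHLHE40 and H3K27ac were measured by chromatin immunoprecipitation and sequencing in 1 group of 2 samples each, and each deposited list stands for its group. Per the submitters' processing notes, the build was hg38 and MACS2 and bcl2fastq 2.20 were used; the aligner and filters are not given in the sources used here. The authors deposited narrowPeak columns. The deposited score of the factor lists is minus 125 times log2 of the irreproducible discovery rate, with a maximum of 1000, and for H3K27ac it is 10 times the −log10 p in all 113570 lines. The authors' signal value is a fold or enrichment ratio, and its reference is not given in the sources used here. The authors' −log10 p and −log10 q were used only to filter or describe. These values were compared only within a list.

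Peaks were joined to RefSeq GRCh38.p14 records (2 kb added) and promoter starts (1 kb each side, 44 members and 15842 genes) by an overlap of at least 1 bp, with pandas 2.3.3, numpy 2.4.6 and scipy 1.17.1 in Python 3.11.15 (plots with matplotlib 3.10.9). The promoter windows run from 250 bases before to 50 after each start. Coordinates are 1-based. The join was tested on simulated data. Members and lists were chosen with earlier results of these data known. Named with full values were catalytic and immunoproteasome genes, the 3 strongest starts per list, windows with no or the most peaks, genes of restricted expression and non-subunits; other members and values were added after being seen. Alternatives were other flanks, stricter lists, length ranges and starts.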

Additional observations from a re-analysis of the deposited data

How the results depend on the processing

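Over 52 alternative settings of 12 results (49 planned and 3 added after seeing the data), 49 values stayed within the counting interval of the reported one, which is wide for counts this small. The 3 outside it were shares of windows: BHLHE40 and H3K27ac each reached 100% (24 of 24) among members of the middle length range, 7418.25 to 29296.5 bp, where all genes had 56.9% and 73.3%, and H3K27ac reached 100% (50 of 50) with a flank of 10 kb, where all genes had 82.1%. In 42 of 42 settings of the window and start shares the member share was above that of all genes. Counting members that share a peak only once could not change the start shares, as no members shared a peak at their starts. With an irreproducible discovery rate of at most 0.01, GATA3 was in 58.0% of member windows and at 43.2% of member starts (36.9% and 15.5% of all genes). Counting CACGCG beside CACGTG raised the member promoters with a match from 4 to 9 of 44 (20.5%) and the share of all promoters to 21.98%. No paired analysis was possible because the lists carry 1 value per peak for 2 samples together, and for the same reason no sample could be left out. The lists give no depth, so a missing peak does not show that a factor was absent.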
